A study of Mus musculus with 38 samples.

Results

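Tail skin of mice injected with hippuric acid was compared directly with tail skin of mice in which vitiligo had been induced, in the counts of bulk RNA sequencing. All libraries labelled hippuric_acid (wild type mice given hippuric acid i.p., 5 libraries) and all libraries labelled vitiligo induction without ABX (9 libraries) were taken, 14 of the 38 libraries of the series. ABX is the series' name for the treatment that depleted gut microbes, and the libraries with it were not compared here. Each of the 2 groups has a control of its own: wild type mice given vehicle i.p. (vehicle, 3 libraries) for hippuric acid, and wild type mice without induction (no_induction, 9 libraries) for vitiligo. Per the series' design text, the injections were meant to model raised levels of this metabolite of gut microbes in the skin, with reactive oxygen as the feature watched. No library of one control belongs to the other, so in the direct comparison the treatment and anything else that differs between the 2 sets of mice cannot be told apart. The labels give no strain, age, sex, dose or duration for any of these groups and do not say how vitiligo was induced, so the stage of the model is unknown here. Each condition was therefore also measured against its own control, and the difference between the 2 responses was tested.

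Hippuric acid is the glycine conjugate of benzoic acid: gut bacteria release benzoate from dietary polyphenols, and the host's mitochondria join it to glycine. Vitiligo is a loss of epidermal melanocytes. In people and in mouse models, CD8+ T cells that make interferon gamma kill melanocytes, and keratinocytes answer interferon gamma with the chemokines CXCL9 and CXCL10, which draw in more T cells. Type I interferon works through a related but distinct arm, which switches on antiviral genes such as Ifit1 and Isg15. Oxidative stress, an excess of hydrogen peroxide and related species over catalase, superoxide dismutases and peroxiredoxins, is the other long-standing theme of vitiligo skin.

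Totals ran from 15.3 to 27.9 M counts over the 14 libraries, 17.9 to 20.5 M in hippuric_acid. Keratinocyte and dermal markers were present in every one of the 14 libraries (Krt14 at 1583 CPM, counts scaled to the size of the library, or more, Col1a1 at 799 CPM or more), as were the melanocyte genes Pmel, Dct and Tyrp1 (2.04 CPM or more). Muscle genes were near 0 (Acta1 at most 4.58 CPM). Some libraries stand apart: 4 vitiligo libraries (000, 001 and 260 among them), 1 vehicle and 5 no_induction libraries have more genes with non-whole counts than the rest, up to 1955 against 1349 to 1463 in hippuric_acid. The intestinal gene Fabp2 exceeded 1 CPM in vitiligo 000 and 260, in vehicle 001 and in 2 no_induction libraries. Y-linked transcripts exceeded 10 CPM in vehicle 001 and in 2 no_induction libraries and reached at most 0.309 CPM in the 14. None of the 5 hippuric_acid libraries is in any of these sets. The scaling factors of hippuric_acid (1.06 to 1.10) lie above those of vitiligo (0.958 to 1.04).

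In the direct comparison 4118 of 14082 genes tested (29.2%) passed an adjusted p of 0.05 in edgeR's quasi-likelihood test, 1941 (13.8%) higher in hippuric_acid and 2177 (15.5%) lower. Of these, 164 were at least 2-fold higher and 421 at least 2-fold lower. Among the 34 gene lists used, the main blocks on the higher side were type I interferon genes (22) and mast cell genes (10). Those on the lower side were adipocyte genes, epidermal barrier genes, antioxidant genes and genes of mitochondrial respiration and of the ribosome. These lists hold only a small part of the genes called higher, and the rest were not grouped. Against its own control hippuric_acid had 1821 called genes (12.5%), 539 higher (3.7%) and 1282 lower (8.79%), and vitiligo had 1506 (10.3%), 910 higher (6.24%) and 596 lower (4.09%). The 2 responses differed in 1557 of 14578 genes (10.7%), with hippuric_acid on the higher side in 393 (2.7%) and on the lower side in 1164 (7.98%). Between the 2 controls edgeR called 0 genes, with 542 at an unadjusted p under 0.05, and DESeq2 and limma-voom also called 0. Without the 10 libraries with many non-whole counts, the vitiligo response fell to 37 called genes and the direct comparison held 3718. Below, a change is log2 hippuric_acid over vitiligo unless another comparison is named, with its standard error (SE), and every adjusted p of a gene is from edgeR. The direct counts within a list are to be read beside the shares of all genes, 13.8% higher and 15.5% lower.

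**Figure D1:**
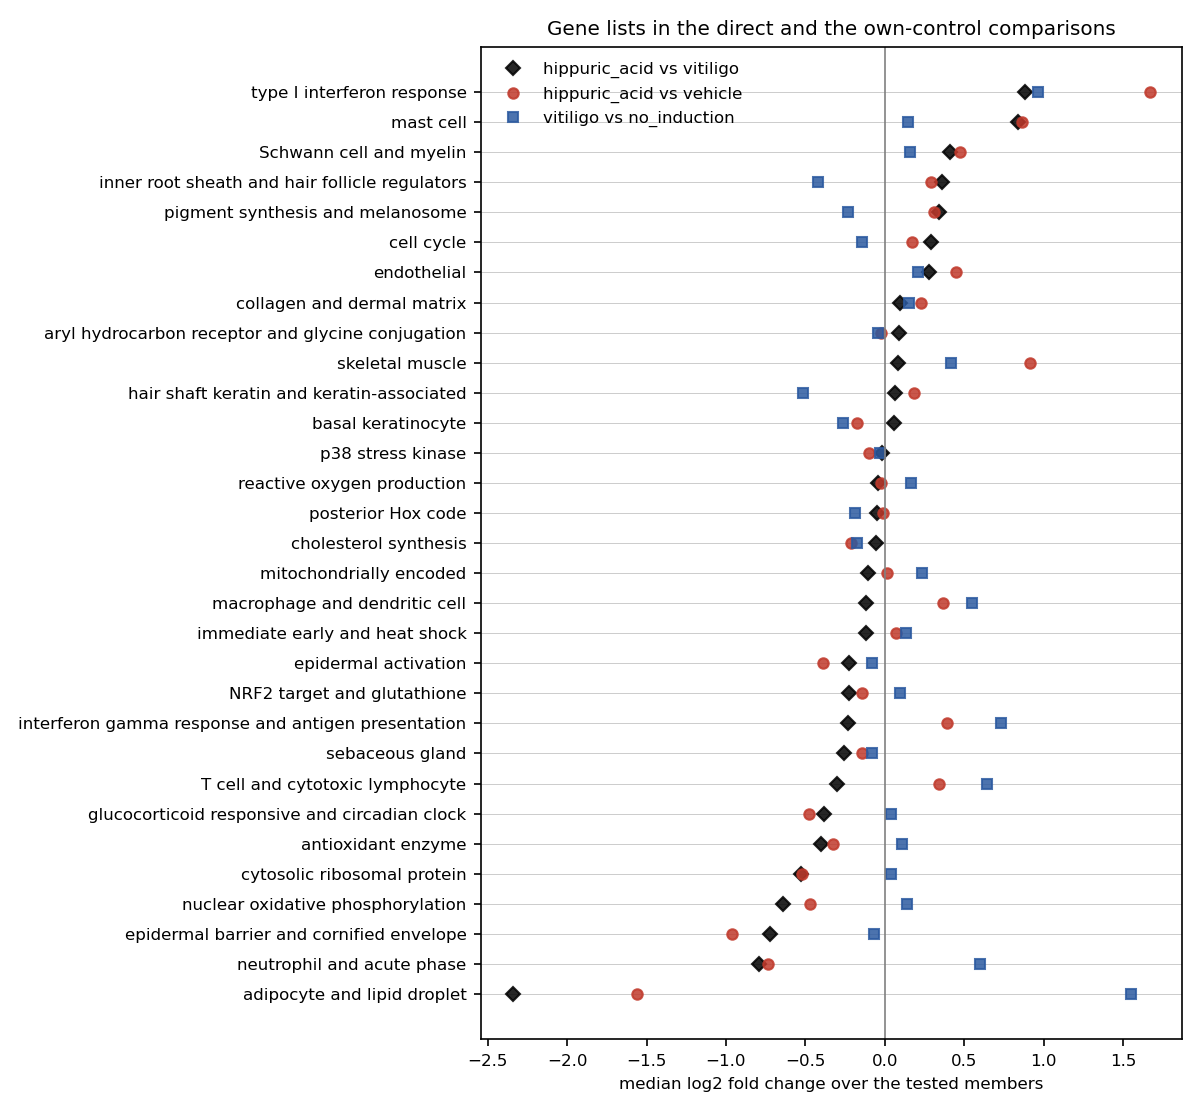
Median log2 fold change (x axis) over the tested members of each gene list with at least 10 tested genes (rows), directly between hippuric_acid and vitiligo (black diamonds) and for each group against its own control (red circles, blue squares). Type I interferon lies to the right in all of them, while the adipocyte list lies at -1.56 for hippuric_acid and at 1.55 for vitiligo.

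Many type I interferon genes rose in both conditions and stood higher in hippuric acid skin than in vitiligo skin, with overlapping groups. Of 35 tested genes of the list, 30 rose against vehicle (median 1.67 on the log2 scale) and 23 rose in vitiligo against no_induction (median 0.97), with 19 rising in both. Without the 10 libraries with many non-whole counts, 0 of the type I interferon response list rose in vitiligo (median 0.63) and 27 rose against vehicle, and without those with Fabp2 3 rose in vitiligo. With 1 library left out, 14 (without vehicle 003) to 34 rose against vehicle, 19 of them without vehicle 002. In vitiligo 12 rose without vitiligo 000 or 047, and 15 without no_induction 002, 021, 022 or 023. Directly, 22 were higher in hippuric_acid and 1 was lower (median 0.89, against 0.03 over all genes tested), and 22 and 24 were higher without these sets of libraries. Of the 35, 0 were higher without overlap between the groups and 1 was lower without overlap. Over all genes tested, 4.3% were higher without overlap. The difference between the 2 responses passed the test for 3 genes on the higher side (0 to 8 with 1 library left out) and 1 on the lower. The promoters below, of 2 antiviral genes and of 2 chemokines that answer interferon gamma, were searched for the letters by which the type I arm is usually recognised, the interferon-stimulated response element. They are the 250 bases before the start in RefSeq's table for GRCm38.p6, 5′ to 3′ on the gene's strand, with the letters TTTCNNTTTC, read on either strand, and TTCNNNGAA, the interferon gamma activated site, in capitals. Overlapping matches run together, and all capitals shown belong to the first pattern.
Ifit1 (chr19:34640639-34640888, plus strand): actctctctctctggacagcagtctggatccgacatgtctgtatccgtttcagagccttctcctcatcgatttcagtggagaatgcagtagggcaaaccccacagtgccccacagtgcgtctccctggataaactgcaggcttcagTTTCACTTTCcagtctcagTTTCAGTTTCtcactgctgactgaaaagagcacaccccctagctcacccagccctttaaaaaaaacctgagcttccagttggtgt
Isg15 (chr4:156200819-156201068, minus strand): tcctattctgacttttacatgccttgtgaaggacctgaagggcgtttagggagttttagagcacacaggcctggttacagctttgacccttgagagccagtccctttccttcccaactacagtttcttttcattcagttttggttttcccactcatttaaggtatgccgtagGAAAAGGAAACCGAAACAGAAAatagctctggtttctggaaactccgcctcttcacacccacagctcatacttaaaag
Cxcl10 (chr5:92348890-92349139, minus strand): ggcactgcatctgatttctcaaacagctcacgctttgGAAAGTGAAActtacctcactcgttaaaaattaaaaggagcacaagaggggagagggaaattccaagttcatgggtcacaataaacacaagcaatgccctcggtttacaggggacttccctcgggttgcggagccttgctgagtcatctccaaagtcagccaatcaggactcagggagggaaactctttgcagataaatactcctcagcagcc
Cxcl9 (chr5:92328080-92328329, minus strand): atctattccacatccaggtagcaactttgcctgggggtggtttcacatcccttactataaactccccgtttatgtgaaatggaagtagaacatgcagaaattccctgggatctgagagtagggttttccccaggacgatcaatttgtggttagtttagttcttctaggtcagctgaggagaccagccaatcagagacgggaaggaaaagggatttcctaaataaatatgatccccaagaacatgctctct
Ifit1 has 2 matches, Isg15 has 3 that overlap, Cxcl10 has 1 and Cxcl9 has 0. Over windows of 300 bases that reach past the start, TTTCNNTTTC was in 3.99% of 27025 genes. It was in 13 of the 25 type I interferon genes found in the table (52%), in 14 of 29 interferon gamma and antigen presentation genes (48.3%) and in 0 of 16 adipocyte genes. TTCNNNGAA was in 9.55% of all genes, in 5 of the 25 and in 8 of the 29.

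Ifit1, which blocks translation of viral RNA, stood at 34.9, 62.5, 6.92, 21.5 and 58.6 CPM in hippuric_acid 1 to 5, and from 1.45 to 17.9 CPM (median 3.82) in the 9 vitiligo libraries. Only hippuric_acid 3 lies inside the vitiligo range. The change was 2.74 (SE 0.525, adjusted p = 0.00153), a 6.7-fold higher level, and the responses against the own controls also differed (2.78, SE 0.812, adjusted p = 0.0264). Ifit3, a related protein with a near-identical gene copy that makes its count uncertain, was higher by 2.06 (SE 0.475, adjusted p = 0.00491). Isg15, a ubiquitin-like modifier, had 10.7, 23.7, 3.08, 9.41 and 17.5 CPM in hippuric_acid against 2.45 to 10.7 CPM (median 3.61) in vitiligo. Its change was 1.51 (SE 0.416, adjusted p = 0.0139), and it passed against both own controls (3.21 and 1.29). The direct call was lost with limma-voom (adjusted p = 0.109) and without hippuric_acid 2 (edgeR adjusted p = 0.0569). Eif2ak2, the kinase PKR that senses double-stranded RNA, was at 27.2 to 43.5 CPM in hippuric_acid and 10.2 to 27.7 CPM in vitiligo (change 0.82, SE 0.177, adjusted p = 0.00322).

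Several members rose in both conditions without a called difference between them. Oas3, which makes the messenger that activates RNase L, rose by 2.65 against vehicle (SE 0.748) and by 1.98 in vitiligo (SE 0.453), and the direct difference was 0.63 (95% interval -0.54 to 1.80). Mx1, an antiviral GTPase, rose by 2.17 and 1.43, and its direct difference was 0.89 (95% interval -0.18 to 1.95). Both intervals reach past 2-fold, so equal levels were not shown.

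Ifi27 went the other way. This interferon-induced protein of mitochondrial and nuclear membranes stood at 28.7, 34.1, 20.2, 27.9 and 17.8 CPM in hippuric_acid and at 50.1 to 93.3 CPM (median 62.4) in vitiligo, and the groups did not overlap. The change was -1.37 (SE 0.193, adjusted p = 0.000169). It fell by 0.69 against vehicle (adjusted p = 0.0454) and rose by 0.97 in vitiligo (adjusted p = 0.000107). The size of the type I interferon response varied within each group: of 36 listed genes, 34 were lowest in hippuric_acid 3 among the 5, and 32 were highest in vitiligo 000 among the 9. Without vitiligo 000, 29 list genes were higher in hippuric_acid, and without hippuric_acid 1, 2 or 5, 14, 11 and 12 were. With limma-voom and sample weights, 6 were.

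Single genes of the interferon gamma side were called in both directions, some lower in hippuric_acid and others higher. Cxcl9 is made almost only under interferon gamma, and stood at 0.149, 0.092, 0.051, 0.941 and 0.383 CPM in hippuric_acid and from 0.628 to 12 CPM (median 3.53) in vitiligo. Only hippuric_acid 4 lies inside the vitiligo range. The change was -3.58 (SE 0.722, adjusted p = 0.00218). Cxcl9 rose in vitiligo (2.54, SE 0.472, adjusted p = 0.000888) and changed by -1.15 against vehicle, which did not pass (SE 0.822, adjusted p = 0.387), and these responses differed (-3.69, SE 0.948, adjusted p = 0.0125). Cxcl10, which answers both interferon types, stood at 1.17 to 2.10 CPM in hippuric_acid and at 0.613 to 5.14 CPM in vitiligo, a change of -0.32 that did not pass (95% interval -1.42 to 0.78).

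H2-K1, the classical MHC class I heavy chain that shows peptides to CD8+ T cells, had 168 to 309 CPM in hippuric_acid and 244 to 616 CPM (median 441) in vitiligo. The change was -0.76 (SE 0.198, adjusted p = 0.0101). It rose by 0.87 in vitiligo (SE 0.143, adjusted p = 0.000216), while against vehicle it changed by 0.07 (SE 0.221, adjusted p = 0.873). Psme2, a proteasome activator subunit used in antigen processing, was lower in all 5 hippuric_acid libraries than in any vitiligo library (57.9 to 83.9 against 90.1 to 113 CPM), a change of -0.42 (SE 0.0892, adjusted p = 0.00275), which did not pass with the length and GC offset described below (adjusted p = 0.0797). Over the list of 35 tested interferon gamma and antigen presentation genes, 20 rose in vitiligo and 8 rose against vehicle, 2 of them in both. In this interferon gamma response and antigen presentation list, 1 gene rose in vitiligo without the 10 libraries with many non-whole counts (median 0.60). Directly 8 were higher in hippuric_acid and 5 lower (median -0.23). Without vitiligo 001, 12 were lower. Against vehicle 3 rose without vehicle 002 or 003 and 5 without hippuric_acid 2 or 5. Over all genes tested directly, 13.8% were higher and 15.5% lower, so the 5 of 35 lower lie near that share.

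The higher ones include interferon-inducible GTPases. Gbp4 stood at 21.9, 28.6, 9.79, 37.1 and 17.2 CPM in hippuric_acid and at 6.39 to 11.5 CPM in vitiligo, higher by 1.35 (SE 0.235, adjusted p = 0.000801). Tgtp1, a GTPase that attacks the vacuoles of intracellular parasites and also has a near-identical copy, was higher by 1.80 (SE 0.366, adjusted p = 0.00228). Its direct call was lost with limma-voom (adjusted p = 0.0705). Both also rose against vehicle (1.34 and 1.66) and had changes of 0.13 and -0.16 in vitiligo that did not pass (adjusted p = 0.745 and 0.802).

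T cell genes were low in both groups and lower in hippuric_acid where they passed: 7 of 26 tested were lower and 0 higher (median -0.30), while 7 of 29 rose in vitiligo and 0 passed against vehicle. Over all genes tested, 15.5% were lower directly and 6.24% rose in vitiligo. Trbc1, a constant segment of the T cell receptor beta chain, had 5.42, 5.18, 4.26, 2.64 and 3.59 CPM in hippuric_acid and 5.96 to 17.4 CPM (median 7.98) in vitiligo, without overlap (change -1.16, SE 0.287, adjusted p = 0.00771), but its call was lost with the length and GC offset (adjusted p = 0.076). Ccl5, a chemokine of activated T cells, was lower by 2.35 on the log2 scale (change -2.35, SE 0.513, adjusted p = 0.00333), from 0.096 to 0.448 against 0.302 to 2.08 CPM. Cd8a was at most 0.335 CPM in hippuric_acid and 0.312 to 1.98 CPM in vitiligo. It did not pass the filter of the direct test and entered only the fit of 26 libraries, at 1.98 CPM or less. The difference of its responses (-3.31, SE 1.03, adjusted p = 0.0366) thus rests on values near 0 and is no support for a T cell difference. Without the 4 vitiligo libraries with many non-whole counts, 2 T cell genes were lower, and without all 10 such libraries 0 rose in vitiligo and 3 rose against vehicle (T cell and cytotoxic lymphocyte list). Single libraries moved both counts: 3 were lower without hippuric_acid 3 and 4 without hippuric_acid 4 or vitiligo 260, and 3 (without vitiligo 000 or 039 or no_induction 023) to 12 (without vitiligo 001) rose in vitiligo.

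Cd207, the Langerhans cell lectin, was at 3.64 to 6.91 CPM in hippuric_acid and 7.31 to 12.1 CPM in vitiligo, a change of -0.88 without overlap (SE 0.18, adjusted p = 0.00222). It rose by 0.96 in vitiligo (adjusted p = 0.0031). Itgad, the CD11d integrin chain of tissue macrophages, had 0.205 to 0.412 CPM in hippuric_acid and 5.14 to 103 CPM (median 9.58) in vitiligo (change -6.36, SE 1.02, adjusted p = 0.000413). The macrophage and dendritic cell list as a whole had 1 gene higher and 3 lower of 28, both under the shares of all genes, 13.8% and 15.5%. Without vitiligo 001, 6 were lower.

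**Figure D2:**
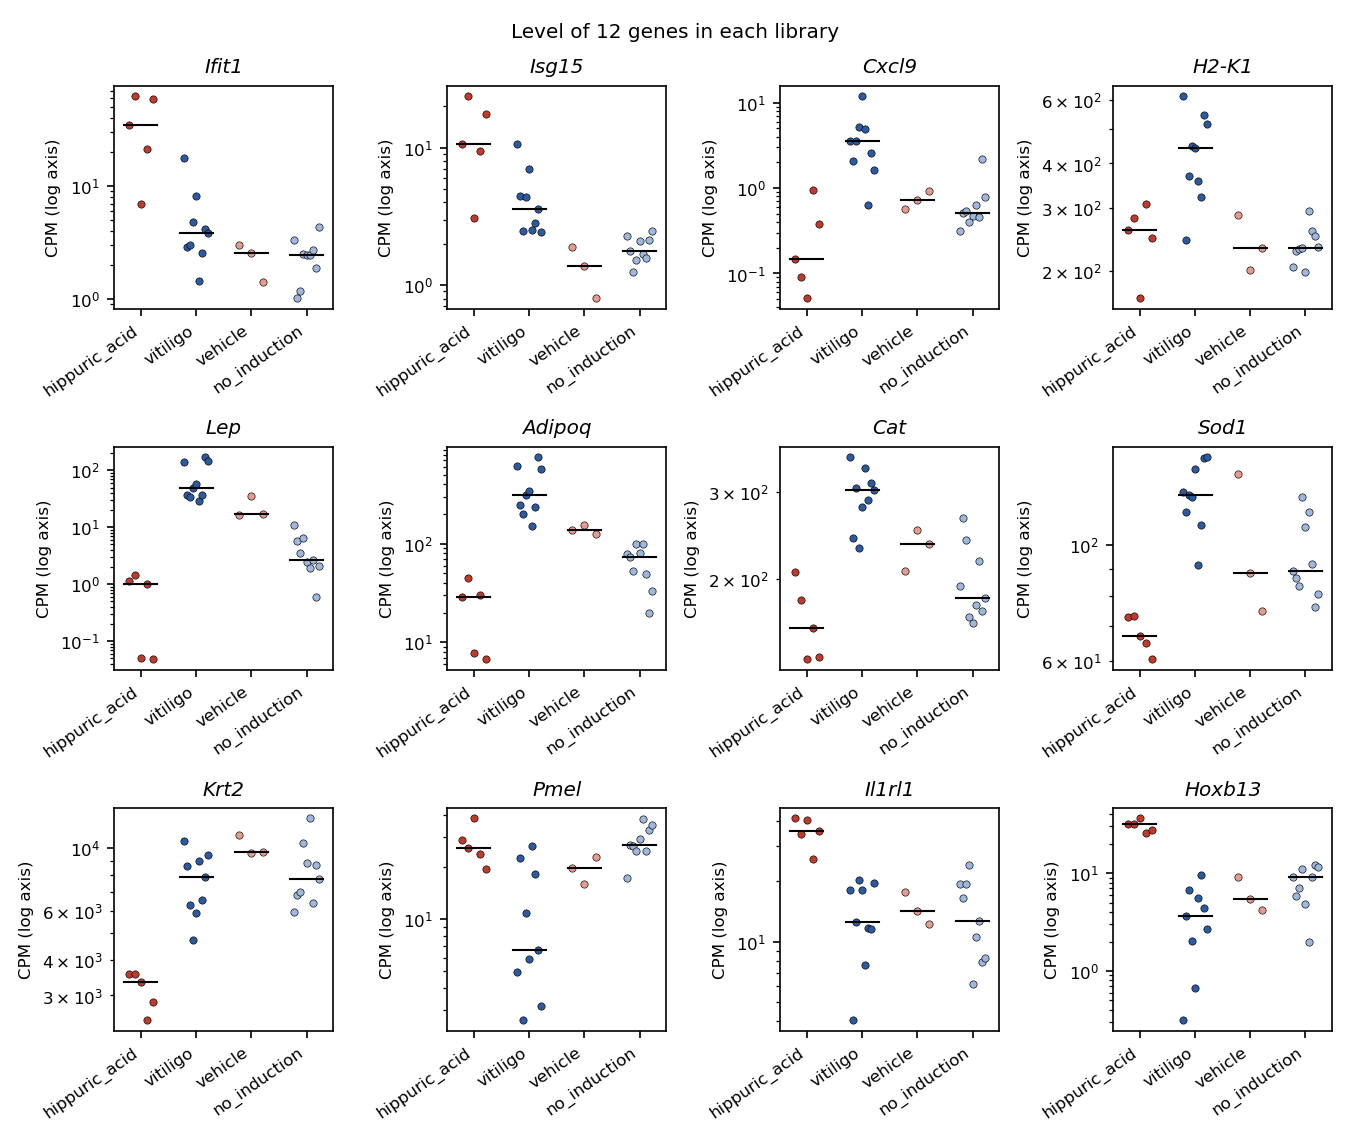
CPM (log axis) of 12 genes in each library of the 4 groups, with 1 point per library and a line at the group median. Ifit1 is highest in hippuric_acid, Cxcl9 and H2-K1 are highest in vitiligo, and Lep in hippuric_acid (0.048 to 1.47 CPM) lies below every vitiligo library (29.3 to 171 CPM).

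Adipocyte genes gave the widest separation. Of 26 tested, 24 were lower in hippuric_acid, all 24 without overlap between the groups, and the median was -2.34. Over all genes tested 7.46% were lower without overlap. The list went in opposite directions against the own controls: 22 fell against vehicle (median -1.56), 22 rose in vitiligo (median 1.55), and 20 were called in both with opposite sign. The responses differed in 24 of 26 (median -3.22). Without the 10 libraries with many non-whole counts, 24 of the adipocyte and lipid droplet list were still lower directly and 20 fell against vehicle, but 2 rose in vitiligo (median 1.19). Bulk tissue cannot tell fewer adipocytes from less RNA per adipocyte, and this holds for every cell type named here.

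Leptin, the hormone of fat stores, showed the largest fall among the genes that met the naming rule. Lep stood at 1.14, 1.47, 0.051, 1.03 and 0.048 CPM in hippuric_acid and at 29.3 to 171 CPM (median 49.4) in vitiligo, a change of -6.67 (SE 0.748, adjusted p = 4.6e-05). Vehicle had 16.4, 35.9 and 17.0 CPM and no_induction 0.592 to 10.9 CPM, so the controls themselves did not overlap. Lep fell by 4.92 against vehicle (SE 0.8) and rose by 4.29 in vitiligo (SE 0.49).

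Adipoq, the insulin-sensitising hormone adiponectin, had 28.7, 45.3, 7.79, 30.2 and 6.70 CPM in hippuric_acid and 152 to 757 CPM (median 312) in vitiligo (change -4.01, SE 0.558, adjusted p = 0.00016). Plin1, which coats the lipid droplet, had 5.55 to 37.1 against 158 to 342 CPM (change -3.62, SE 0.414, adjusted p = 5.32e-05). Cidec, which fuses lipid droplets, and Retn, the hormone resistin, changed by -3.84 and -4.14. Libraries 3 and 5 of hippuric_acid had the lowest values of all 4 of these genes. The acute phase and adipose gene Hp, haptoglobin, had 2.92 to 16.5 CPM against 33.9 to 394 CPM (change -4.30, SE 0.639, adjusted p = 0.000246). The cytochrome P450 gene Cyp2e1 (1.29 to 17.3 against 64.8 to 253 CPM) and Hydin, a gene of motile cilia (0.048 to 0.49 against 2.12 to 7.41 CPM), changed by -4.12 and -3.81. Pon1, the paraoxonase of blood lipoproteins, was listed at 0 CPM in 2 hippuric_acid libraries and changed by -4.09 (SE 0.996, adjusted p = 0.00702). Slc1a5, a glutamine transporter that is no adipocyte marker, also separated the groups (33.0 to 65.8 against 98.2 to 203 CPM, change -1.73, SE 0.221, adjusted p = 9.55e-05).

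The mean log2(CPM + 1) of the adipocyte list ran from 4.23 to 5.59 in hippuric_acid, 6.78 to 7.76 in vitiligo, 6.54 to 6.55 in vehicle and 5.0 to 6.20 in no_induction. The vehicle libraries thus lie above the no_induction libraries, although 0 genes were called between the controls. This level separates the 2 groups without overlap. A fit with it as a covariate called 0 genes in the direct comparison, with 1453 at an unadjusted p under 0.05. In such a fit the group and the level can hardly be told apart, and why the calls were lost was not tested. How far the adipocyte level goes with the other differences was not tested beyond that fit.

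**Figure D3:**
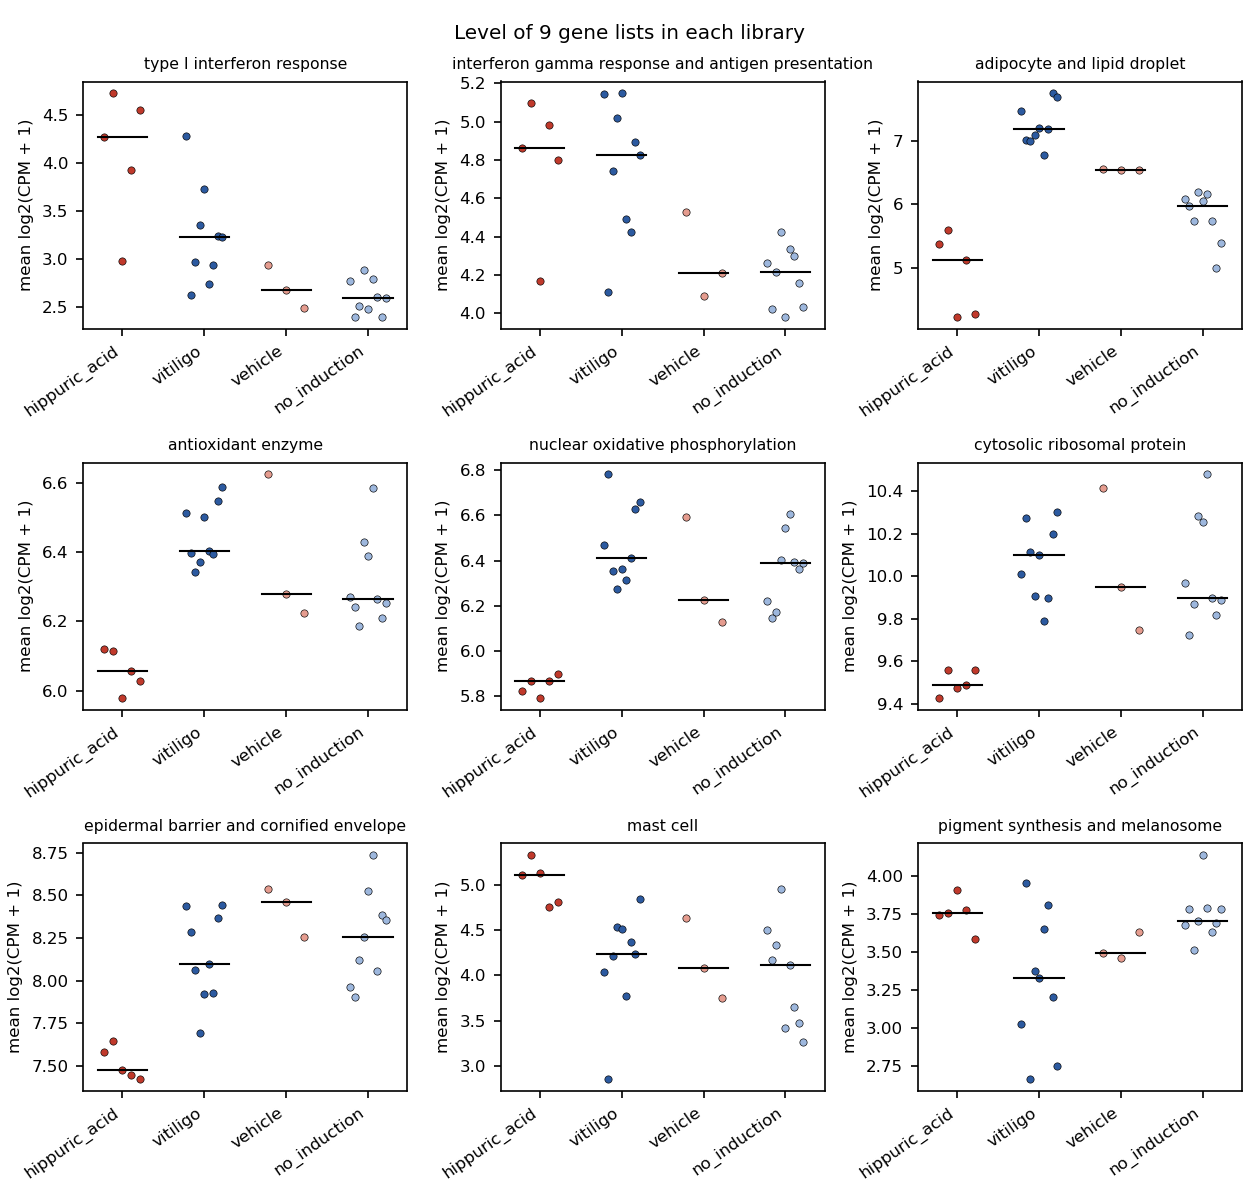
Mean log2(CPM + 1) over the genes of 9 lists (y axis) in each library of the 4 groups, with a line at the group median. The adipocyte, antioxidant, oxidative phosphorylation, ribosomal and barrier levels of hippuric_acid all lie below those of vitiligo, while the interferon levels overlap.

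Antioxidant enzymes were lower in hippuric_acid skin than in vitiligo skin. Of 38 tested, 24 were lower and 0 higher (median -0.40), 16 of them without overlap. Against vehicle 11 fell and in vitiligo 6 rose, 2 of these in both with opposite sign, and the responses differed in 15, all on the lower side. With the libraries with many non-whole counts left out, 0 of the antioxidant enzyme list rose in vitiligo, 24 were lower directly and 7 of the responses differed on the lower side and 1 on the higher. Without vehicle 001 alone, 7 fell against vehicle and 6 responses differed.

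Catalase, Cat, which breaks down hydrogen peroxide, had 206, 181, 137, 159 and 139 CPM in hippuric_acid and 231 to 353 CPM (median 302) in vitiligo. The groups did not overlap, and the change was -0.84 (SE 0.12, adjusted p = 0.000163). It fell by 0.50 against vehicle (adjusted p = 0.0356) and rose by 0.59 in vitiligo (adjusted p = 0.000404). Sod1, the cytosolic superoxide dismutase, had 72.9, 73.1, 66.8, 64.8 and 60.3 CPM against 91.5 to 148 CPM (median 125), a change of -0.90 (SE 0.106, adjusted p = 5.69e-05). It too fell against vehicle (-0.58) and rose in vitiligo (0.41).

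Prdx1, the main cytosolic peroxiredoxin, had 348 to 377 CPM in hippuric_acid and 476 to 560 CPM in vitiligo (change -0.52, SE 0.066, adjusted p = 8.16e-05). It fell against vehicle (-0.48) and changed by 0.07 in vitiligo, which did not pass. Gpx1, the glutathione peroxidase of cytosol and mitochondria, was lower by 0.49 (change -0.49, SE 0.115, adjusted p = 0.00549), and neither own-control change passed. Its call was lost with the length and GC offset (adjusted p = 0.0714) and in the fit of 4 groups (adjusted p = 0.0549). Sod2, the mitochondrial dismutase, changed by -0.28 (SE 0.0868, adjusted p = 0.0227), lost without hippuric_acid 2 (adjusted p = 0.06) and without hippuric_acid 3 (adjusted p = 0.0575). Gpx3, the secreted peroxidase, ranged from 139 to 685 CPM in hippuric_acid and from 212 to 938 CPM in vitiligo and did not pass (adjusted p = 0.147).

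Genes that NRF2, the transcription factor of the oxidant response, switches on moved less. Of 38 tested, 16 were lower and 3 higher (median -0.22), with 4 lower and 2 higher against vehicle and 1 higher in vitiligo. These small own-control counts ran from 2 to 5, 0 to 3 and 1 to 5 with 1 library left out, and 5 were higher directly without vitiligo 062. With an offset for gene length and GC content, 7 were lower. Hmox1, heme oxygenase, changed by -0.20 (95% interval -0.48 to 0.08), and Nqo1, a quinone reductase, by 0.16 (95% interval -0.07 to 0.40). For these 2 genes the groups lay within 2-fold of each other. Among 34 genes whose products make reactive oxygen, 9 were lower and 1 higher (median -0.04). Nos2, the inducible nitric oxide synthase, had 1.39 to 3.63 CPM against 0.371 to 2.31 CPM and did not pass (change 0.56, adjusted p = 0.228). The p38 stress kinase list had 3 higher (1 without hippuric_acid 3 or 5, 5 without vitiligo 001) and 3 lower of 35, with 34 within 2-fold by their intervals, among them the kinase Mapk14 (change -0.07, 95% interval -0.21 to 0.06). Over all genes tested directly, 83.1% lay within 2-fold, 13.8% were higher and 15.5% lower.

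Genes of the respiratory chain and of the ribosome were lower almost as a block. Of 74 tested nuclear genes of oxidative phosphorylation, 70 were lower and 0 higher (median -0.64), 63 without overlap. Against vehicle 44 fell, in vitiligo 2 rose, and the responses differed in 46. Without the libraries with Fabp2, 20 of the nuclear oxidative phosphorylation list fell against vehicle, 32 responses differed and 66 were lower directly. Without vehicle 001 alone, 18 fell against vehicle and 27 responses differed. Atp5l, subunit g of ATP synthase, had 138, 147, 131, 140 and 145 CPM in hippuric_acid and 219 to 343 CPM (median 273) in vitiligo (change -0.96, SE 0.0966, adjusted p = 3.6e-05). Ndufb3, an accessory subunit of complex I, had 20.9 to 27.8 against 40.8 to 58.2 CPM (change -0.95, SE 0.0957, adjusted p = 3.6e-05). Of 13 genes encoded in mitochondrial DNA, 3 were lower (median -0.11), and 5 without vitiligo 062.

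Of 50 cytosolic ribosomal protein genes, 48 were lower and 0 higher (median -0.53), 45 without overlap. Rpl38, a large subunit protein, stood at 83.9, 87.8, 76.0, 77.7 and 83.0 CPM in hippuric_acid and at 137 to 351 CPM in vitiligo (change -1.53, SE 0.185, adjusted p = 6.9e-05). Rpl10 had 328 to 411 against 561 to 877 CPM (change -0.94, SE 0.108, adjusted p = 4.8e-05). Ribosomal protein genes have many near-identical pseudogenes, and how the authors' counting shared reads between them is not given in the sources used here. Against vehicle 29 fell and in vitiligo 0 passed. Leaving out the libraries with many non-whole counts, 14 of the cytosolic ribosomal protein list fell against vehicle and 43 were lower directly. Against vehicle 8 fell without vehicle 001 and 16, 17, 18 and 18 without hippuric_acid 1, 3, 4 and 5.

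Over all genes the direct change went with gene length, a relation that was not measured within the respiratory and ribosomal lists. Across the 14082 genes the direct change had a Spearman rho of 0.347 with gene length, the merged exons of all transcripts. With the GC content of the longest transcript rho was -0.106. Both are descriptions across genes of the same libraries. With an offset for both, 55 of 74 respiratory genes (median -0.37) and 36 of 50 ribosomal genes (median -0.36) were lower. The same offset left 24 adipocyte genes and 21 antioxidant genes lower.

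Epidermal barrier genes were lower in hippuric acid skin both directly and against vehicle. Of 38 tested genes of the cornified envelope and barrier, 24 were lower and 2 higher than in vitiligo (median -0.72), 15 of them lower without overlap. Against vehicle 28 fell (median -0.96), in vitiligo 5 fell (median -0.07), 3 fell in both, and the responses differed in 22, 21 on the lower side. The vitiligo count was 1 to 5 with 1 library left out, with 1 without vitiligo 047 or 260 or no_induction 023. Krt2, the keratin of the upper spinous and granular layers, had 3586, 3571, 3354, 2446 and 2847 CPM against 4701 to 10552 CPM in vitiligo (change -1.28, SE 0.186, adjusted p = 0.000187).

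Krt10, the main suprabasal keratin, had 4305 to 5421 against 6075 to 13603 CPM (change -0.83, SE 0.166, adjusted p = 0.00194). Krtdap, a marker of keratinocyte differentiation, and Casp14, the caspase of cornification, changed by -1.38 (SE 0.189) and -1.14 (SE 0.143), both without overlap. All 4 also fell against vehicle, by 1.69 for Krt2, 1.45 for Krt10, 1.40 for Krtdap and 1.3 for Casp14, and none passed in vitiligo. Krt14, the basal layer keratin, was lower by 0.63 (change -0.63, SE 0.151, adjusted p = 0.00619) with overlapping groups, and the basal keratinocyte list had 1 higher and 2 lower of 15.

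Pigment genes fell in vitiligo (4 of 21 tested, 0 higher), while against vehicle 2 rose and 1 fell. In the pigment synthesis and melanosome list 0 fell in vitiligo without the 10 libraries with many non-whole counts and 0 without those with Fabp2, while 7 fell without vitiligo 001. Dct, Pmel and Tyrp1, melanosome enzymes and matrix made by melanocytes, fell by 1.16, 1.33 and 1.26 in vitiligo (adjusted p = 0.0132, 0.0116 and 0.0135), and changed by 0.57, 0.47 and 0.81 against vehicle, none passing. Dct stood at 33.7, 32.7, 38.6, 31.1 and 22.4 CPM in hippuric_acid and from 3.28 to 27.4 CPM (median 8.37) in vitiligo. The vitiligo libraries fall far apart, with 001, 062 and 063 at 23.4 to 27.4 CPM and the other 6 at 3.28 to 11.9 CPM. The direct change was 1.24 (SE 0.425, adjusted p = 0.0389), and its call was lost with the length and GC offset (adjusted p = 0.0903). It was also lost in 9 of the 14 fits that leave out 1 library (highest adjusted p = 0.0867, without hippuric_acid 3). The same held without the libraries with many non-whole counts or those with Fabp2.

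Tyrp1 changed by 1.41 (adjusted p = 0.0332), lost in 6 of the 14 such fits and without the same sets of libraries, and Pmel by 1.27, which did not pass (adjusted p = 0.0511). Responses differed for Tyrp1 (2.07, adjusted p = 0.0264) and Dct (1.72, adjusted p = 0.0425). Tyr, the gene of tyrosinase, which starts melanin synthesis, Mlana and the melanocyte regulator Mitf did not pass in any of these comparisons. Over the list, 6 of 19 were higher and 1 lower (median 0.34), with 3 higher without hippuric_acid 1, 2 or 3. The lower one was the melanosome gene Rab38 (change -0.61, adjusted p = 0.00178). Sox10, a factor of melanocytes and Schwann cells, was higher in all 5 hippuric_acid libraries (12.2 to 20.2 against 8.53 to 11.1 CPM, change 0.75, SE 0.114, adjusted p = 0.000257). Ednrb, an endothelin receptor of melanocytes and vessels, was at 49.0 to 66.6 against 17.0 to 43.4 CPM (change 0.94, SE 0.189, adjusted p = 0.00202). Schwann cell and myelin genes, where Sox10 also acts, had 5 of 16 higher and endothelial genes 4 of 16, both with 0 lower. Over all genes tested directly, 13.8% were higher. The Schwann cell count was 1 without hippuric_acid 1 or 2 and 8 without hippuric_acid 5, and 2 or 3 without hippuric_acid 3 or any of 4 vitiligo libraries (039, 062 and 063 among them). The endothelial count was 7 without hippuric_acid 5.

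Of 33 hair shaft keratin and keratin-associated genes, 8 fell in vitiligo and 1 fell against vehicle. Directly 7 were higher and 3 lower, where 13.8% of all genes were higher and 15.5% lower. The responses differed in 7, all with hippuric_acid higher. With the 10 libraries with many non-whole counts removed, 0 of the hair shaft keratin and keratin-associated list fell in vitiligo, 0 of the responses differed, and directly 4 were higher and 5 lower. With 1 library left out, 1 to 5 were lower directly (1 without hippuric_acid 1, 3, 4 or 5, 5 without vitiligo 001), and the responses differed in 0 without vehicle 001 and in 3 without hippuric_acid 3. Krtap4-13, a cuticle protein gene, had 9.45, 26.7, 44.8, 24.2 and 42.4 CPM against 2.52 to 12 CPM (change 2.11, SE 0.369, adjusted p = 0.000821). Members of this family are near copies of each other, so their counts are uncertain.

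Mast cell genes were higher in hippuric acid skin: 10 of 15 tested, with 0 lower (median 0.84) and 5 without overlap, where 4.3% of all genes were higher without overlap. Il1rl1, the interleukin 33 receptor ST2, had 41.4, 34.7, 40.5, 25.8 and 35.9 CPM against 4.03 to 20.4 CPM (change 1.37, SE 0.277, adjusted p = 0.00223). Tpsab1, a tryptase, had 4.66 to 12.1 against 1.41 to 7.45 CPM (change 1.38, SE 0.299, adjusted p = 0.00324). Kit, the stem cell factor receptor of mast cells and melanocytes, changed by 0.34 (adjusted p = 0.0312), lost in 4 of the 14 fits without 1 library, without the libraries with many non-whole counts or those with Fabp2, and with the length and GC offset. The count over the list was 5 without hippuric_acid 2, 5 without hippuric_acid 3 and 6 without vitiligo 062. Against vehicle 1 of the 15 passed, and for 0 did the responses differ in edgeR. When the libraries with many non-whole counts were left out, 12 of the mast cell list rose against vehicle, 11 responses differed with hippuric_acid higher and 13 were higher directly; without those with Fabp2 the direct count was 5.

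Clock genes differed in both directions. Dbp and Nr1d1, which the clock drives at the opposite phase to Arntl, were lower in hippuric_acid without overlap: Dbp at 14.9, 18.9, 24.8, 12.9 and 24.9 against 29.2 to 70.9 CPM (change -1.39, SE 0.222, adjusted p = 0.000392), and Nr1d1 by -0.94 (SE 0.162, adjusted p = 0.000694). Arntl, the gene of the clock factor BMAL1, and its partner Npas2 were higher without overlap, by 0.53 (SE 0.0955, adjusted p = 0.000972) and 0.82 (SE 0.157, adjusted p = 0.00148). Against vehicle Dbp and Nr1d1 fell (-1.58 and -1.05), and in vitiligo Arntl and Npas2 fell (-0.39 and -0.53). The labels give no time of day. Over the glucocorticoid and clock list 4 of 23 were higher and 10 lower, with 6, 4 and 5 lower without hippuric_acid 3, 4 and 5.

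Hoxb13, the homeobox gene of the tail end of the body axis, had 32.1, 31.4, 36.5, 25.8 and 27.4 CPM against 0.312 to 9.47 CPM, the largest rise among the genes that met the naming rule (2.97, SE 0.47, adjusted p = 0.000357). It also rose against vehicle (2.28, SE 0.628, adjusted p = 0.0173). Vehicle had 9.04, 5.40 and 4.19 CPM. Osr1, a transcription factor of dermal fibroblast progenitors, had 13.8 to 24.0 against 1.92 to 7.23 CPM (change 2.0, SE 0.209, adjusted p = 3.9e-05). Shisa6, a regulator of glutamate receptors in nerve cells, had 2.38 to 5.07 against 0.49 to 1.66 CPM (change 2.0, SE 0.258, adjusted p = 9.19e-05). Of 14 posterior Hox genes 3 were higher and 1 lower, and of 27 collagen and matrix genes 7 were higher and 1 lower (3 without vitiligo 001). Over all genes tested directly, 13.8% were higher and 15.5% lower.

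Of the 14578 genes tested, 142 were called against both own controls in the same direction, 55 up and 87 down, which is 7.8% of the hippuric_acid calls and 9.43% of the vitiligo calls. Called in opposite directions were 140, of which 133 fell with hippuric acid and rose in vitiligo. Among the 142, the responses differed for 8 and the direct comparison was called for 47. Among the 140, these counts were 140 and 136. The difference of responses is taken from the same 2 changes that picked these genes. Opposite signs make it large and shared signs make it small, so these counts are no separate result. Of the 910 genes that rose in vitiligo, 432 had a change above 0 against vehicle, and of the 596 that fell, 332 had one under 0. Of all 14578 genes tested, 7427 had the same sign in both comparisons, so these counts lie near the share of all genes. Across genes the 2 changes had a Pearson r of 0.022, as a description only. Without the 10 libraries with many non-whole counts the shared count was 3 and the opposite count 15.

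The shared genes with the largest changes include Eif2s3y and C7, which go with the control libraries set apart above: Eif2s3y is Y-linked, and C7, a complement protein, stood at 225 CPM in vehicle 001, at 1.45 and 2.46 CPM in the other 2 vehicle libraries and at 0.103 to 1.39 CPM in hippuric_acid. The next ones are the interferon genes Oas3, Mx1 and Isg15. The opposite genes with the largest changes were Lep, Hp, Adipoq and Apol6, the last a member of the apolipoprotein L family with 0.909 to 4.12 CPM in hippuric_acid and 17.5 to 49.8 CPM in vitiligo (change -3.56, SE 0.381, adjusted p = 3.9e-05). Of the 4118 genes called directly, 1453 also had responses that differed, 356 with hippuric_acid higher and 1097 with it lower. Both tests use the same hippuric_acid and vitiligo libraries, so they are not independent.

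**Figure D4:**
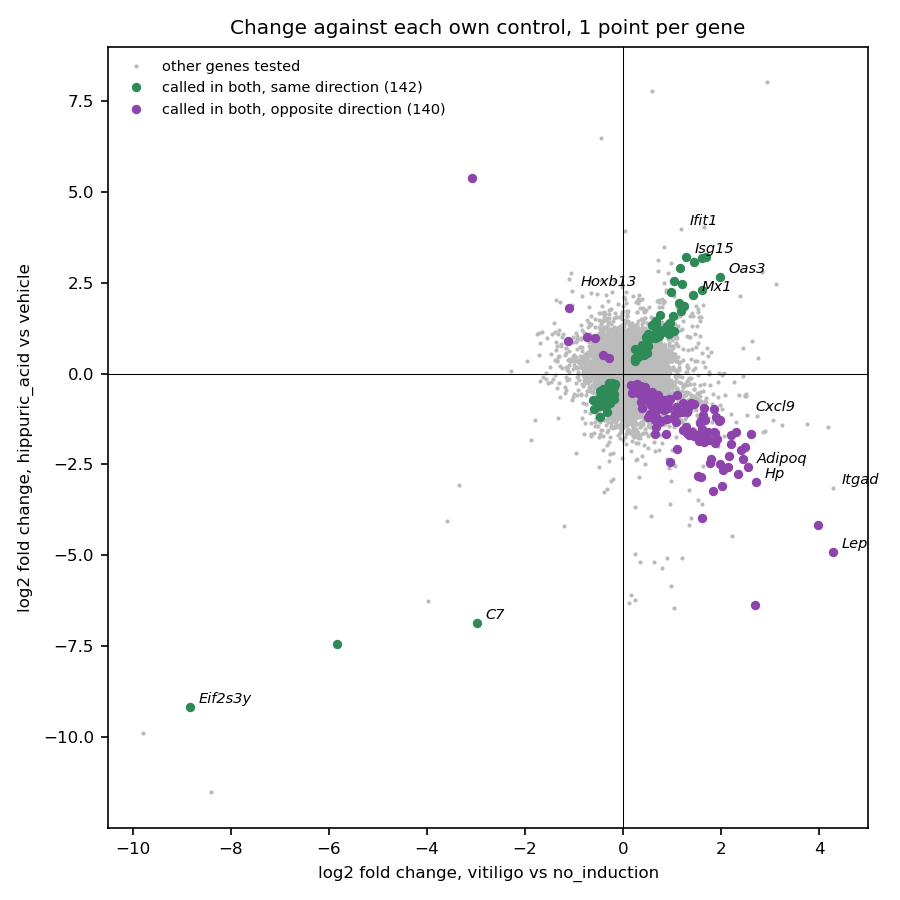
Log2 fold change of each gene in vitiligo vs no_induction (x axis) and in hippuric_acid vs vehicle (y axis), 1 point per gene, with genes called in both coloured by direction. The 142 shared genes (green) hold the interferon genes at the upper right, and 133 of the 140 opposite genes (purple) lie at the lower right, with Lep at the far end.

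Where the 2 groups lay close was measured by the interval of the direct difference rather than by a p over the threshold. For 11698 of 14082 genes (83.1%) the 95% interval lay wholly within 2-fold. Of 27 immediate early and heat shock genes, 21 lay within 2-fold, so that list was no closer than genes in general. Acsm3, of the medium-chain acyl-CoA synthetase family whose members include the enzymes that activate benzoate for conjugation with glycine, had 25.1 to 49.8 CPM in hippuric_acid and 16.8 to 55.8 CPM in vitiligo (change 0.41, 95% interval -0.11 to 0.94). It does not stand for its family. Of 13 tested genes of the aryl hydrocarbon receptor and glycine conjugation list, 3 were lower, Acsm5 among them, and 0 higher. The lowest change in that list was -4.42 directly and -3.98 against vehicle, and 11 of the 13 lay within 2-fold.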

How the data were processed

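Poly(A) RNA of mouse tail skin was sequenced on a NovaSeq6000 from NEBNext Ultra libraries, per the labels' protocols. HISAT2, Bowtie2 2.2.8, DESeq2 and StringTie 1.3.1 are listed in the submitters' processing notes, with no role for each. The build, the annotation, the counter and the use of strand are not given in the sources used here, so overlapping and antisense genes cannot be told apart. The values are estimated counts, which the authors deposited as 1 table of genes by libraries. At least 1 value was not whole in 3107 of the 19218 genes used (16.2%), and values were rounded, changing no library's total by more than 22.1. Of 19220 rows, 1 incomplete row and 1 with no symbol were left out.

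Groups came from the labels' treatment. Whether each library is a separate mouse is not said there, and p-values measure only how far these libraries spread, which may be technical. All replicate pairs differed by more than counting noise (chi-square of 7.58 per degree of freedom or more). The direct comparison was fitted with edgeR 4.0.16 in R 4.3.3 (quasi-likelihood, robust, TMM factors, default filter by group) on 14 libraries, and the own-control comparisons, the difference of responses and the controls on 26 libraries. Genes were called at a Benjamini-Hochberg adjusted p under 0.05 over all genes tested, and all tests were two-sided. SEs were derived from the F statistic. CPM are TMM-scaled over the 26 libraries, and list levels are means of log2(CPM + 1).

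Genes named are the 10 largest rises and falls among called genes of at least 1 CPM, up to 4 members of each of 34 gene lists, the largest shared and opposite changes, and genes of the study's theme; not all that qualify are printed. The comparisons, members, lists and rules were chosen with earlier results of these data known, so a pattern that was known is no independent support. Alternatives were RLE factors, other filters, DESeq2 1.42.0, limma-voom (limma 3.58.1), 1 surrogate variable (sva 3.50.0), all 38 libraries, an adipocyte covariate, a replicate block and each library left out. Added after seeing the data were fits without the libraries set apart by non-whole counts, Fabp2 or Y-linked transcripts, and an offset for gene length and GC content (GENCODE M21, 4 spline degrees of freedom). The tests were tried on simulated counts. Promoters are from RefSeq's table.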

Additional observations from a re-analysis of the deposited data

Results flagged for a closer look

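Within the groups of 5 and 9 libraries, 204 sets of values (68 list levels and 136 gene levels) were searched for a single library far from the others by Dixon's test, and 9 were found. Chance flags about 1 in 20 such sets, which is more than were found. Among the hippuric_acid libraries, library 1 was high in the immediate early and heat shock list, at 5.9064 on the log2 scale with the next library at 5.593, and in Nos2, at 3.631 CPM with the next at 1.787 CPM. Library 3 was low in Psme2, at 57.9 CPM with the next at 76.8 CPM, and library 4 was low in Krt10, at 4305 CPM with the next at 5143 CPM. Among the vitiligo libraries, 062 was high in the cholesterol synthesis list (7.0114, next 6.6953) and in the basal keratinocyte list (7.9195, next 7.5126). Library 001 was low in the collagen and dermal matrix list (6.7458, next 7.5411) and high in the cell cycle list (5.1431, next 4.5123). Library 000 was high in the skeletal muscle list (1.1964, next 0.6885).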

How the results depend on the processing

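The direct comparison held 3033 to 5245 called genes with each library left out (lowest without hippuric_acid 3, highest without vitiligo 001), 3071 without libraries with Fabp2, 3192 with the length and GC offset and 6078 with limma-voom; at a fold of at least 2 it held 585, and with the adipocyte level as covariate 0. That level separates the groups, and the fit also reversed the sign of the direct log2 change, with no gene called, of Ifi27 (0.31), H2-K1 (0.54), Trbc1 (0.53), Itgad (1.47), Cd207 (0.026), Adipoq (0.65), Retn (0.37), Cidec (0.11), Cyp2e1 (0.70), Slc1a5 (0.075), Gpx3 (1.75), Pon1 (2.21), Hmox1 (0.15), Pmel (-0.63), Tyrp1 (-0.35), Tyr (-0.99), Mlana (-1.24), Mitf (-0.18), Krtap4-13 (-0.22) and Acsm3 (-0.50). Hmox1 was at 0.026 with the length and GC offset, Cxcl10 at 0.028 with limma-voom, and Mlana at -0.049 without libraries with Fabp2 and from -0.056 (without vitiligo 006) to 0.57 (without vitiligo 001) with 1 library left out; none of these genes is called in the direct comparison.

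With each library left out, hippuric_acid against vehicle held 1204 (without vehicle 003) to 2092 genes, vitiligo against no_induction 907 (without no_induction 023) to 2980 (without vitiligo 001), the difference of responses 1026 (without vehicle 001) to 2102, the shared genes 67 (without vitiligo 047 or vehicle 003) to 252 (without vitiligo 001) and the opposite genes 88 (without hippuric_acid 5) to 204. The vitiligo count also moved over 1.5 times without vitiligo 000 (955), 047 (918) or 260 (979) and no_induction 021 (928) or 022 (925). The shared count did so without vitiligo 000, 039, 062 or 260, vehicle 002 and no_induction 002, 021, 022 or 023 (73 to 231), and the opposite count without hippuric_acid 3 (89) or vehicle 002 (90). Between the controls 0 to 1 were called, the 1 without vehicle 001, and 1 without the libraries with Y-linked transcripts. At a fold of at least 2 the counts were 436 for hippuric_acid against vehicle, 315 for vitiligo and 628 for the difference. Limma-voom called 5989 in vitiligo and 2589 in the difference, with 669 shared and 330 opposite genes. Without the libraries with many non-whole counts 37 were called in vitiligo, 915 in the difference, 3 shared and 15 opposite; without those with Fabp2, 902 in vitiligo and 78 shared; with the length and GC offset 241 were shared. The cause was not tested.

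The replicate block, for hippuric_acid and vehicle libraries that share the numbers 1 to 3, gave 879 called genes, against 617 in the same 6 libraries without it. Same-numbered libraries correlated at 0.175, -0.085 and 0.098, and differently numbered ones at -0.324 to 0.291. So few values cannot tell whether same-numbered libraries share more than a number. No paired analysis was possible because hippuric_acid and vitiligo share fewer than 2 numbers, as do vitiligo and no_induction. The labels do not say whether a number names a shared mouse or batch.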
